A study of Mus musculus with 12 samples.

Results

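The mouse mitochondrial genome carries 37 genes, and all 37 were rows of a count table that holds 43346 genes from cultured peritoneal macrophages. They were taken as every gene whose name begins with mt-: 13 mRNAs, 2 rRNAs and 22 tRNAs. Macrophages of C57BL/6 mice were kept in medium with serum and then given oxidized low-density lipoprotein (oxLDL), the modified lipoprotein that macrophages take up as they become foam cells, at 20 µg/ml for 8 h, or medium alone as the control. The cells came from CD36 KO mice, which lack a scavenger receptor for oxLDL and long-chain fatty acids, or from wild-type (WT) mice. The 4 groups were CD36 KO with oxLDL, CD36 KO in control medium, WT with oxLDL and WT in control medium, with 3 libraries each and 12 in all. The labels give no age or sex, give no purification of the peritoneal cells, and do not say which part of Cd36 is missing in the KO. They name total RNA, and whether poly(A) RNA was selected or rRNA removed is not stated, so what the levels of the tRNAs and rRNAs say beside those of the mRNAs depends on a step that is unknown here. Nor is it stated whether the 3 replicates of a group were separate mice or cultures; the p-values reflect the spread among these libraries alone, and that spread may be technical.

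The mitochondrial genome is a small circle that is transcribed from both strands as long precursors. The tRNAs lie between most of the mRNAs and rRNAs, and their removal by processing enzymes frees the transcripts on either side, which for most mRNAs then receive a short poly(A) tail. Its mRNAs encode core subunits of respiratory complexes I, III and IV and of the ATP synthase, which work together with nuclear-encoded subunits. Its rRNAs and tRNAs serve the translation of those mRNAs inside the organelle.

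Summed counts ran from 35257762 to 65135955 per library. Cd36, the deleted gene, averaged 199 ± 7.58 CPM (counts scaled to a common library size with TMM factors, as CPM) in CD36 KO cells with oxLDL and 481 ± 28.3 CPM in CD36 KO cells in control medium, against 3100 ± 1048 CPM in WT cells with oxLDL and 5362 ± 106 CPM in WT cells in control medium (SD, n = 3 each). Reads from Cd36 thus remained in the KO at a lower level. One library stood apart from its group: WT oxLDL replicate 1 had the lowest TMM factor (0.729) and the lowest quality weight of the 12 in a voom fit (0.0273, against 0.215 to 3.98 in the others), so the results it moved are also given without it. Markers of macrophages summed to 16962 to 19045 CPM of all counts in CD36 KO cells with oxLDL, 17819 to 19029 CPM in CD36 KO cells in control medium, 17051 to 25349 CPM in WT cells with oxLDL and 16419 to 16601 CPM in WT cells in control medium. Leaving out WT oxLDL replicate 1, the range in WT cells with oxLDL was 17051 to 17139 CPM. Lyz2 made up most of these macrophage sums, at 11244.4 to 19180.5 CPM over the 12 libraries, so they rest mainly on a single gene. The 5 markers of the resident large peritoneal macrophage summed to 22.3 to 25.6 CPM in CD36 KO cells with oxLDL, 30.1 to 45.1 CPM in CD36 KO cells in control medium, 12.6 to 15.5 CPM in WT cells with oxLDL and 15.8 to 23.9 CPM in WT cells in control medium. Most of these sums came from Gata6 in control medium and from Gata6 and Timd4 with oxLDL. Icam2, Selp and Alox15 went the other way between genotypes, as given below.

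The results below turn on 3 tRNA genes, of which mt-Tm and mt-Tl2 differed between genotypes and with oxLDL and mt-Tl1 between genotypes, and their sequences are shown with the anticodon in capitals (from the GENCODE M21 transcripts of GRCm38, written as DNA). mt-Tm encodes the methionine tRNA at chrMT:3845-3913 (plus strand), directly before mt-Nd2. mt-Tl2 encodes the leucine tRNA for CUN codons at chrMT:11671-11741 (plus strand), directly before mt-Nd5. mt-Tl1 encodes the leucine tRNA for UUR codons at chrMT:2676-2750 (plus strand), between mt-Rnr2 and mt-Nd1. In all 3 cases 0 bases lie between the tRNA gene and the mRNA gene that follows.
mt-Tm: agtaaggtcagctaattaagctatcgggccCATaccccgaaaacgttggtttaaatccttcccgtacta
mt-Tl2: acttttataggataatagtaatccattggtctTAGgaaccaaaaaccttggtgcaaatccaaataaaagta
mt-Tl1: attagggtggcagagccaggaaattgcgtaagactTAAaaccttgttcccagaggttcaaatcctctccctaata

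The second set of sequences shows why some mitochondrial counts cannot be read alone. The reference genome holds 7 annotated copies of mitochondrial genes side by side on chromosome 1, within chr1:24611535-24616197 (minus strand, mm10). Over 4149 compared bases these copies differ from the mitochondrial genes at 7 positions, and 5 of the 7 copies are identical letter for letter over their whole length. The copy of mt-Nd3, a gene for a complex I subunit, is Gm28438, and it differs at a single base near the start of the gene. That substitution is T3C, with the mitochondrial base first and positions counted from 1 at the 5′ end of the gene. The first 60 bases of each are printed with the differing base in capitals, mt-Nd3 from chrMT:9459-9518 (plus strand) and Gm28438 from chr1:24613060-24613119 (minus strand).
mt-Nd3: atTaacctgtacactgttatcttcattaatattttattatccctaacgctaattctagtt
Gm28438: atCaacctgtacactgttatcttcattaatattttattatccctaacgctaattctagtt

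The 13 mRNAs held 95.0% of the 3755630 counts at the 37 genes, the 2 rRNAs 4.52% and the 22 tRNAs 0.488%. A filter on low counts (edgeR's filterByExpr, minimum count 10) kept 29 of the 37 genes: all 13 mRNAs, both rRNAs and 14 tRNAs. The 8 tRNAs left out were mt-Tv, mt-Ta, mt-Ty, mt-Ts1, mt-Tk, mt-Tr, mt-Th and mt-Ts2, none of which reached more than 11 counts in any library. Even among the 14 tRNAs kept, only mt-Tl1 was well covered, with 393 to 1389 counts per library. mt-Tm had 12 to 172 counts, mt-Tl2 had 6 to 154 and mt-Tp, the proline tRNA, had 2 to 16. The values of the rarer tRNAs therefore rest on few counts. The libraries of either genotype alone would have carried 24 of the 29 genes through the filter. The other 5, mt-Tf, mt-Tq, mt-Tn, mt-Tc and mt-Tp, reached its cutoff of 0.243 CPM in 3 or more libraries only among CD36 KO cells. Their higher level in CD36 KO cells is thus a condition of their being tested and is no support for a difference between genotypes, so the main genotype counts are also given over the 24.

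Levels per length divided the mRNAs into a high and a low class. In RPKM as deposited, mt-Nd1, mt-Nd2, mt-Co1, mt-Nd4, mt-Nd5 and mt-Cytb ranged from 171 to 3252 over the 12 libraries and held 98.1% to 99.0% of the mitochondrial mRNA counts. The other 7 mRNAs (mt-Co2, mt-Atp8, mt-Atp6, mt-Co3, mt-Nd3, mt-Nd4l and mt-Nd6) ranged from 3.26 to 68.6 RPKM, and no library of any of them reached the lowest value of the 6 abundant mRNAs. The rRNAs were at 88.4 to 203 RPKM. mt-Co1, the catalytic subunit of complex IV, had the highest level in every group, at 2604 ± 293 RPKM in CD36 KO cells with oxLDL, 3043 ± 341 RPKM in CD36 KO cells in control medium, 1444 ± 279 RPKM in WT cells with oxLDL and 1789 ± 199 RPKM in WT cells in control medium (SD, n = 3 each). Of the 7 mRNAs in the low class, 5 have a nuclear copy of nearly the whole gene: of 50-base stretches of the gene, a copy holds 99.5% for mt-Co2, 99.5% for mt-Atp6, 99.9% for mt-Co3, 98.0% for mt-Nd3, 98.8% for mt-Nd4l, 62.2% for mt-Nd4 and 28.7% for mt-Co1, and 0% for mt-Atp8, mt-Nd6 and the others. How reads that match several places were counted is not given in the sources used here, so the levels of these genes and their copies are uncertain. mt-Nd6, the single mRNA of the light strand, and mt-Atp8, which overlaps mt-Atp6 by 43 bases, were low without an annotated copy. The interval between the copies of mt-Co2 and mt-Atp6 is 233 bases on chromosome 1 and 233 bases on the mitochondrial genome, and mt-Atp8 up to the first base of mt-Atp6 lies in that interval.

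**Figure D1:**
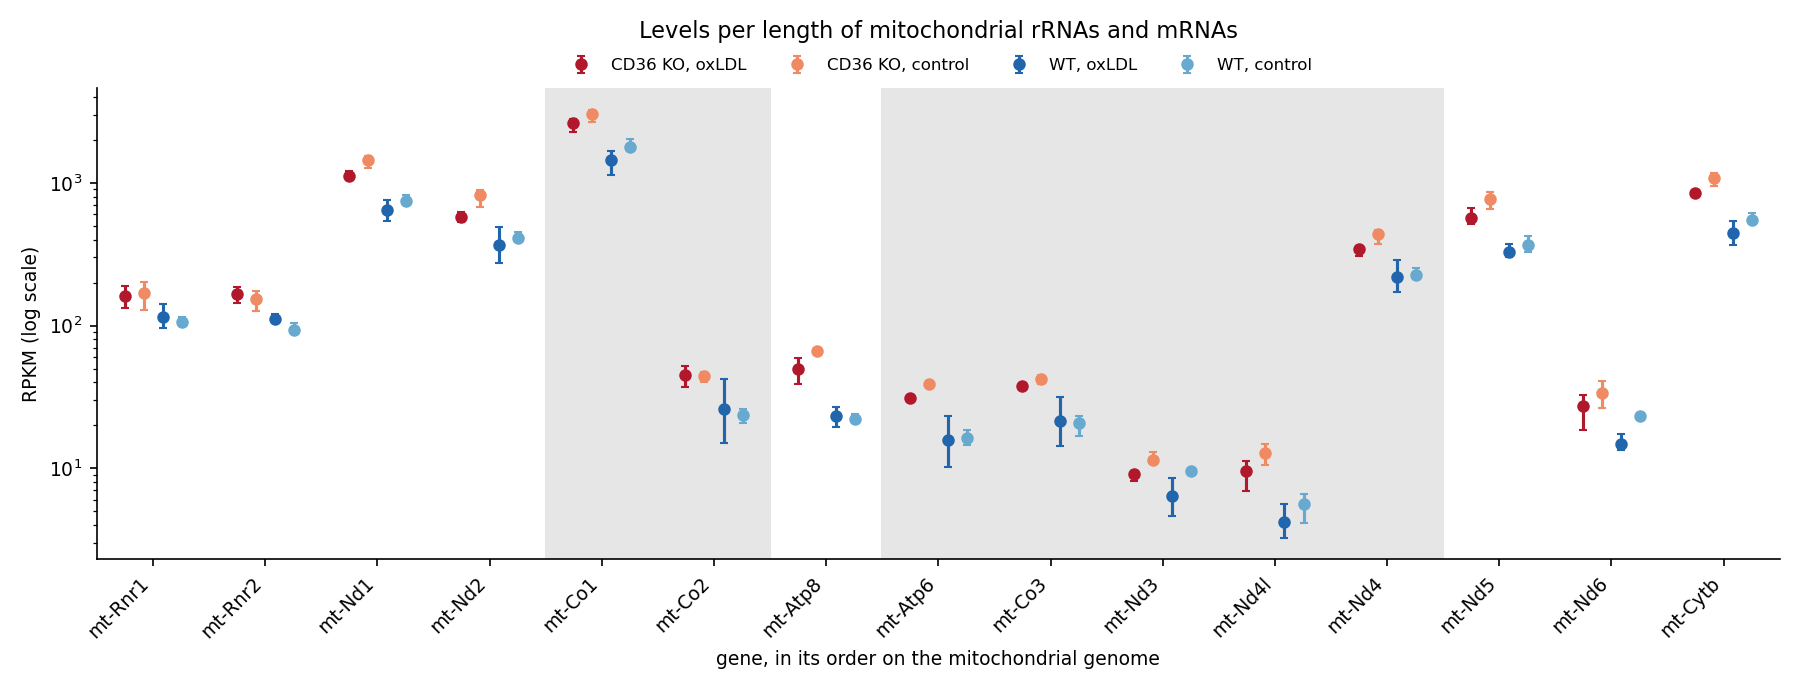
RPKM on a log axis of the 2 rRNAs and 13 mRNAs in their order on the mitochondrial genome. Points are means of 3 libraries and bars run from the lowest to the highest library; grey bands mark genes that share 50-base stretches with a nuclear copy. The 6 abundant mRNAs lie at 171 RPKM or more in every library and the other 7 at 68.6 RPKM or less.

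The share of all counts at the 37 genes was higher in CD36 KO cells than in WT cells in both media, without any scaling between libraries beyond the library total. It was 0.874 ± 0.0759% in CD36 KO cells with oxLDL, 1.08 ± 0.126% in CD36 KO cells in control medium, 0.501 ± 0.0310% in WT cells with oxLDL and 0.586 ± 0.0622% in WT cells in control medium (SD, n = 3 each). The lowest CD36 KO library held 0.791% and the highest WT library 0.658%, so the genotypes did not overlap over the 12 libraries. The groups with oxLDL had lower mean shares than their controls, but the ranges overlapped within CD36 KO cells (0.791% to 0.940% with oxLDL and 0.932% to 1.15% in control medium), while in WT cells they did not (0.470% to 0.531% with oxLDL and 0.547% to 0.658% in control medium). The order was the same for the mRNAs and for the tRNAs, whose share was 0.00428 ± 0.00119% in CD36 KO cells with oxLDL, 0.00615 ± 0.000323% in CD36 KO cells in control medium, 0.00213 ± 0.000309% in WT cells with oxLDL and 0.00255 ± 0.000181% in WT cells in control medium. The rRNAs differed from this in their response to oxLDL: their mean share was slightly higher with oxLDL in both genotypes, at 0.0418 ± 0.00618% with oxLDL and 0.0405 ± 0.00758% in control medium in CD36 KO cells, and at 0.0286 ± 0.00354% with oxLDL and 0.0249 ± 0.00213% in control medium in WT cells. Over the other 2 libraries, without WT oxLDL replicate 1, the mean shares in WT cells with oxLDL were 0.501% for all 37 genes, 0.0266% for the rRNAs and 0.00196% for the tRNAs. In bulk RNA, fewer cells of a type and less RNA per cell cannot be told apart. No test was made on these sums.

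**Figure D2:**
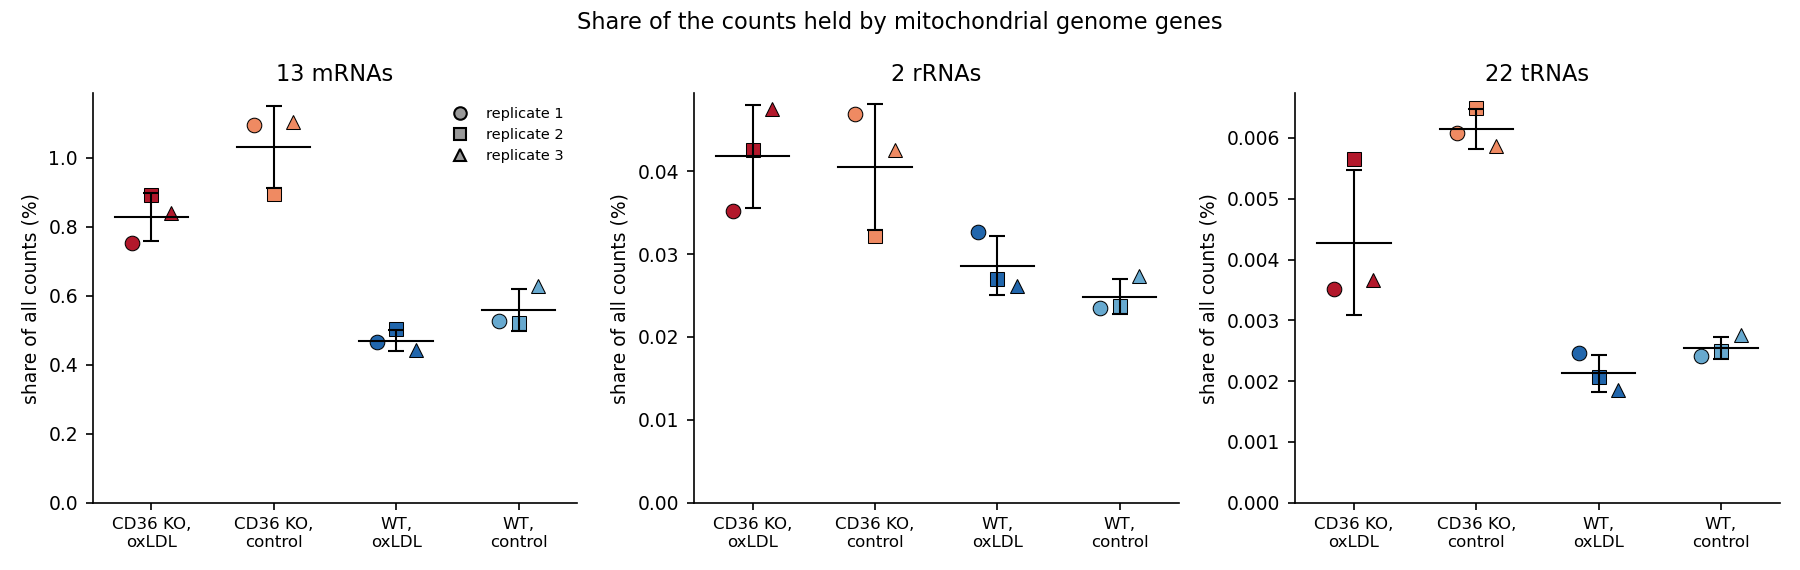
Share of all counts (%) held by the mitochondrial mRNAs, rRNAs and tRNAs in each of the 12 libraries. Symbols mark the replicate, horizontal lines the group mean and bars the SD (n = 3). All 6 CD36 KO libraries lie above all 6 WT libraries for the mRNAs and the tRNAs, and the rRNA panel overlaps.

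Between genotypes in control medium, transcripts of the mitochondrial genome were higher in CD36 KO cells: 12 of the 29 genes tested rose and 0 fell, against 8.78% of all 16281 genes tested that rose and 2.42% that fell. Over the 24 genes whose testing did not depend on their level in CD36 KO cells, 11 rose: 8 of the 13 mRNAs, 3 of 9 tRNAs and 0 of the 2 rRNAs. The median log2 fold change was 0.83 for the mRNAs, 0.55 for the rRNAs and 1.18 for those 9 tRNAs, against 0.01 for all genes. In 20 of the 24 genes every CD36 KO control library was above every WT control library, which held for 27.9% of all genes, and in 0 genes every one was below, which held for 28.0%. A gene is called higher or lower here at an adjusted p under 0.05 (edgeR's quasi-likelihood test with Benjamini-Hochberg adjustment over all genes), and each fold change is a log2 value with its standard error (SE).

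The complex I subunits encoded in mitochondria form part of its proton-pumping membrane arm. mt-Nd5 was at 1251, 1008 and 1397 CPM in CD36 KO control libraries, against 585, 574 and 759 CPM in WT control libraries, and rose by 0.93 in log2 (SE 0.17, adjusted p = 0.00505). The groups did not overlap, and each CD36 KO value was above the highest WT value. mt-Nd1 rose by 0.79 (SE 0.18, adjusted p = 0.0144), mt-Nd2 by 0.84 (SE 0.24, adjusted p = 0.0417) and mt-Nd4l by 1.04 (SE 0.25, adjusted p = 0.0214) on the log2 scale. mt-Nd4 had a similar estimate of 0.79 (SE 0.23) and missed the threshold with an adjusted p of 0.0516. mt-Nd6, from the light strand, had 0.38 (SE 0.25, adjusted p = 0.427), and mt-Nd3 had 0.12 (SE 0.23, adjusted p = 0.849). mt-Cytb, the single mitochondrially encoded subunit of complex III, rose by 0.83 (SE 0.20, adjusted p = 0.0188).

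Of the 3 complex IV subunits, which form its catalytic core, mt-Co1 rose. It was at 4329, 3463 and 4439 CPM in CD36 KO control libraries, against 2429, 2489 and 3044 CPM in WT control libraries, a difference of 0.62 in log2 (SE 0.16, adjusted p = 0.0297). mt-Co2 had 0.77 (SE 0.35, adjusted p = 0.221) and mt-Co3 had 0.88 (SE 0.28, adjusted p = 0.0707). Both ATP synthase subunits, which belong to the membrane part of the enzyme, rose. mt-Atp8 was at 11.9, 11.0 and 12.5 CPM in CD36 KO control libraries, against 4.62, 4.21 and 4.24 CPM in WT control libraries. This was the largest fold change among the mRNAs, at 1.44 (SE 0.19, adjusted p = 0.000962). mt-Atp6 rose by 1.10 (SE 0.28, adjusted p = 0.0268).

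The rRNAs mt-Rnr1 and mt-Rnr2, of the small and the large mitochondrial ribosomal subunit, had log2 fold changes of 0.53 (SE 0.25, adjusted p = 0.233) and 0.58 (SE 0.19, adjusted p = 0.0732). mt-Rnr2 was at 237, 169 and 230.2 CPM in CD36 KO control libraries, against 132, 134 and 160.4 CPM in WT control libraries, which did not overlap. Among the tRNAs, mt-Tl2 showed the largest difference of the 29 genes. It was at 2.84, 2.64 and 3.58 CPM in CD36 KO control libraries, against 0.636, 0.718 and 0.616 CPM in WT control libraries, a difference of 2.20 in log2 (SE 0.29, adjusted p = 0.00101). mt-Tm rose by 1.38 (SE 0.26, adjusted p = 0.00649) and mt-Tl1 by 1.03 (SE 0.17, adjusted p = 0.00329). mt-Tp had 1.38 (SE 0.40, adjusted p = 0.0453), with 8 to 16 counts over all CD36 KO libraries and 2 to 7 over all WT libraries, and it was tested only because of its CD36 KO counts. The other 10 tRNAs did not pass, with estimates of -0.10 for mt-Tg (glycine) and 0.80 to 1.88 for mt-Tt, mt-Tf, mt-Tq, mt-Tn, mt-Te, mt-Tc, mt-Tw, mt-Ti and mt-Td. The estimate of mt-Td, the aspartate tRNA, had a wide SE of 0.70.

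**Figure D3:**
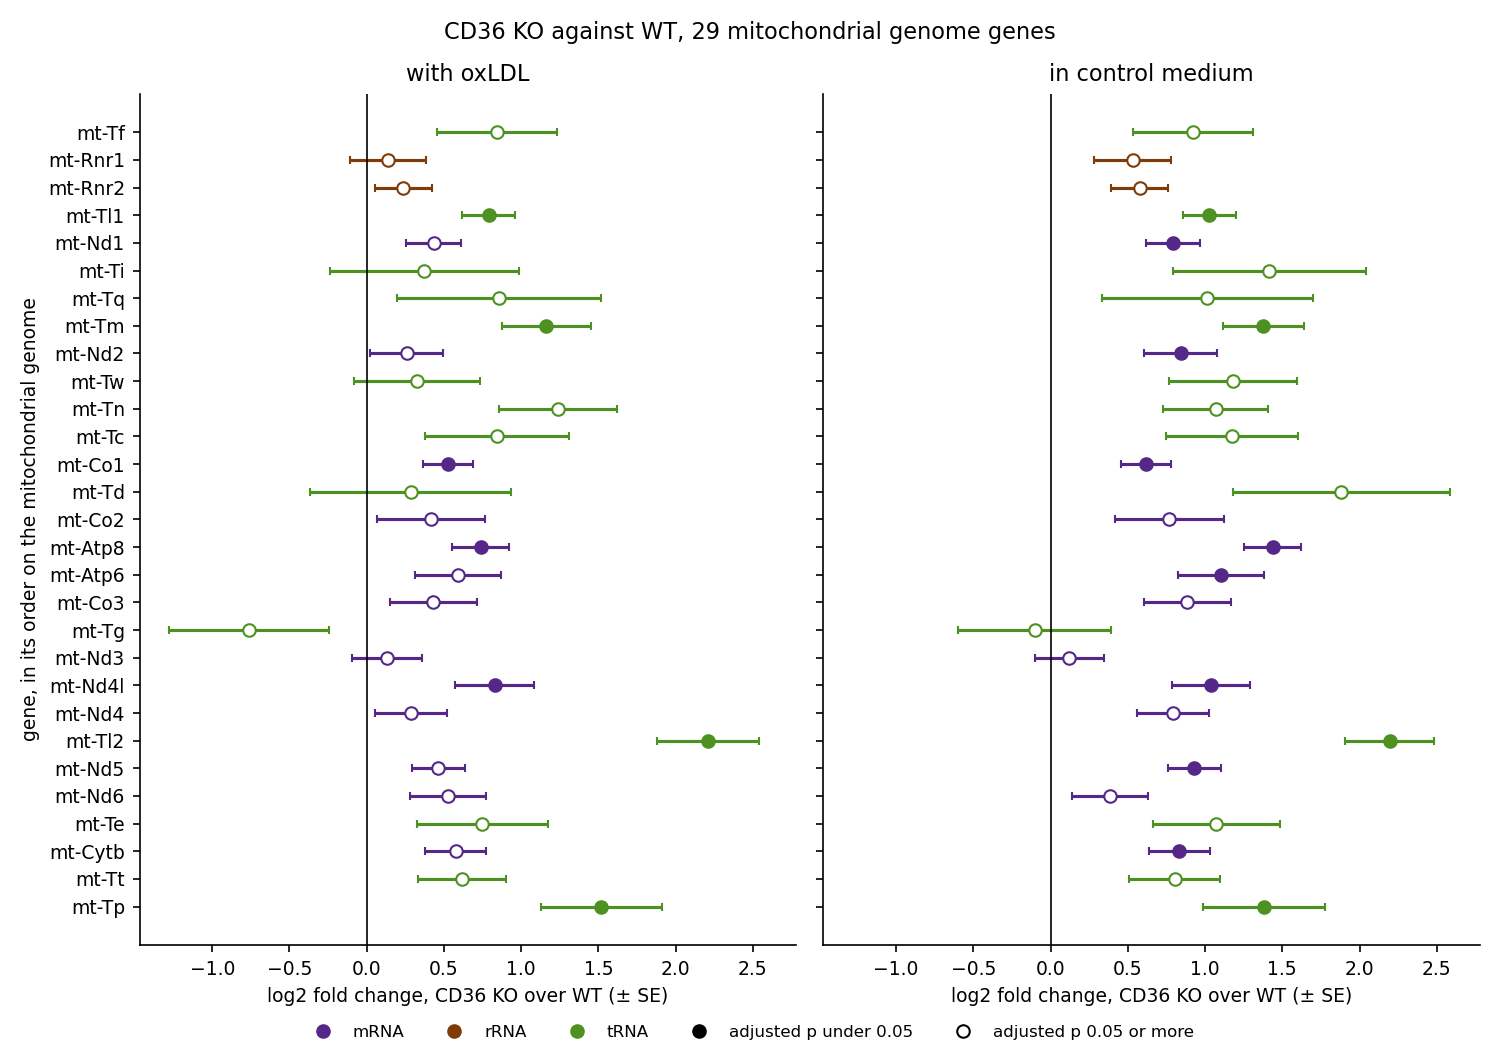
Log2 fold change of CD36 KO over WT (± SE) for the 29 genes tested, with oxLDL (left) and in control medium (right), in genome order. Filled points had an adjusted p under 0.05. Filled points lie to the right of 0 in both panels, 7 with oxLDL and 12 in control medium, and mt-Tl2 lies farthest right in both; mt-Tf, mt-Tq, mt-Tn, mt-Tc and mt-Tp were tested only because of their level in CD36 KO cells.

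Counts in fits that left out 1 library are over the 29 genes, which include the 5 tested only because of their level in CD36 KO cells. Where no count over the 24 is given, they are no support for a difference between genotypes. The count in control medium depended on single libraries. It was 6 without WT control replicate 1 (7.04% of all genes then higher), 5 without WT control replicate 2 (4.41%), 6 without CD36 KO control replicate 1 (7.28%) and 5 without CD36 KO control replicate 3 (6.62%). It was 23, or 20 of the 24, without WT oxLDL replicate 1 (17.2%), which enters through the shared estimate of the spread. Both rRNAs passed in that fit, mt-Rnr1 with 0.53 (adjusted p = 0.0454) and mt-Rnr2 with 0.57 (adjusted p = 0.0134). mt-Atp8, mt-Nd5, mt-Tl1, mt-Tl2 and mt-Tm were called in all 12 fits that left out 1 library. mt-Nd1 was called in 9 of them, mt-Co1, mt-Cytb and mt-Nd4l in 8, mt-Atp6 in 6, and mt-Nd2 and mt-Tp in 3. The call of mt-Co1 was also lost with RLE size factors (adjusted p = 0.0507).

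With oxLDL, fewer of these genes passed in the same comparison, and again 0 were lower. 7 of the 29 genes rose in CD36 KO cells against WT cells, against 11.7% of all genes that rose and 9.86% that fell. Over the 24 genes named above 6 rose: 3 of 13 mRNAs, 3 of 9 tRNAs and 0 of 2 rRNAs. The median log2 fold change was 0.46 for the mRNAs, 0.19 for the rRNAs and 0.62 for the 9 tRNAs, against -0.03 for all genes. The mRNAs were mt-Co1 (0.53, SE 0.16, adjusted p = 0.0378), mt-Atp8 (0.74, SE 0.18, adjusted p = 0.0150) and mt-Nd4l (0.83, SE 0.26, adjusted p = 0.0388). Of the 12 fits that left out 1 library, mt-Co1 was called in 4, mt-Nd4l in 5 and mt-Atp8 in 11. The tRNAs were again mt-Tl1 (0.79, SE 0.17, adjusted p = 0.00797), mt-Tm (1.16, SE 0.29, adjusted p = 0.0151) and mt-Tl2 (2.21, SE 0.33, adjusted p = 0.00118). mt-Tp, tested only because of its counts in CD36 KO cells, had 1.52 (SE 0.39, adjusted p = 0.0175). mt-Tl2 was at 0.768, 1.81 and 1.20 CPM in CD36 KO oxLDL libraries, against 0.201, 0.285 and 0.304 CPM in WT oxLDL libraries, with no overlap. 7 of the 24 genes had no overlap between the groups with CD36 KO higher, against 17.3% of all genes, and 0 with CD36 KO lower, against 15.3%.

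WT oxLDL replicate 1 decided much of this comparison. For 6 of the 7 low-level mRNAs it was the highest of the WT oxLDL libraries. mt-Co2, for example, was at 28.7, 24.8 and 37.3 CPM in CD36 KO oxLDL libraries, against 39.6, 16.2 and 12.3 CPM in WT oxLDL libraries, the first of which is replicate 1. Without that library 20 of the 29 genes, and 18 of the 24, rose and the median of the mRNAs was 0.72, while 16.1% of all genes were called higher. Then 26 of the 29 genes had no overlap with CD36 KO higher, against 25.7% of all genes, and 0 with CD36 KO lower, against 29.8%. The 26 include mt-Tf, mt-Tq, mt-Tn, mt-Tc and mt-Tp, which were tested only because of their level in CD36 KO cells and are no support here. mt-Nd1 then had 0.65 (adjusted p = 0.00131), mt-Cytb 0.82 (adjusted p = 0.000630) and mt-Co2 1.06 (adjusted p = 0.000669). Of the 29 genes, 4 were called without WT oxLDL replicate 3 (10.4% of all genes then higher) and 3 without CD36 KO oxLDL replicate 2 (8.22%). These counts are not given over the 24 and are no support here. mt-Tl2 and mt-Tl1 were called in all 12 fits that left out 1 library. When only the 6 oxLDL libraries were fitted, 1 gene was called, mt-Tl2. Over all 12 libraries, every CD36 KO library was above every WT library for 6 of the 24 genes (mt-Tl1, mt-Co1, mt-Atp8, mt-Nd4l, mt-Tl2 and mt-Nd5), against 6.68% of all genes, and below for 0 genes, against 2.60%. Over the 11 libraries without WT oxLDL replicate 1 this held for 16 of the 29 genes, against 8.36% of all genes, and 0 were below, against 5.25%. The 16 include mt-Tn and mt-Tp, which were tested only because of their level in CD36 KO cells.

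Averaged over both media, 20 of the 29 genes rose in CD36 KO cells and 0 fell, against 16.6% and 10.5% of all genes. Over the 24 genes named above 16 rose: 10 mRNAs, 5 tRNAs and mt-Rnr2 (0.41, SE 0.13, adjusted p = 0.0392). The 3 mRNAs that did not pass were mt-Co2 (0.59, adjusted p = 0.102), mt-Nd6 (0.45, adjusted p = 0.0767) and mt-Nd3 (0.13, adjusted p = 0.606). The count ran from 12 to 28 when single libraries were left out: it was 28, or 23 of the 24, without WT oxLDL replicate 1 (22.9% of all genes then higher). It was 12 without WT control replicate 1 (14.8%), WT control replicate 2 (13.7%) or CD36 KO control replicate 1 (14.9%). It was 13 without WT oxLDL replicate 2 (16.6%), CD36 KO control replicate 3 (14.6%) or CD36 KO oxLDL replicate 3 (16.9%). The counts of 12 and 13 are over the 29 genes, are not given over the 24 and are no support for a difference between genotypes.

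Markers of other cells moved with the genotype. The 5 B cell markers summed to 17.1 to 21.8 CPM of all counts in CD36 KO cells with oxLDL, 22.3 to 25.5 CPM in CD36 KO cells in control medium, 1.77 to 5.33 CPM in WT cells with oxLDL and 3.46 to 4.93 CPM in WT cells in control medium. All 5 rose in CD36 KO cells in both media, against 8.78% of all genes in control medium and 11.7% with oxLDL. Markers of mesothelial cells and fibroblasts summed to 818 to 1167 CPM in CD36 KO cells with oxLDL, 1115 to 2088 CPM in CD36 KO cells in control medium, 244 to 334 CPM in WT cells with oxLDL and 360 to 653 CPM in WT cells in control medium. Most of these sums came from Col1a1 and Col3a1. Of the 5 genes 2 rose in control medium and 3 with oxLDL, against 8.78% and 11.7% of all genes. Krt19 went the other way in control medium, at 0.418 to 0.737 CPM in CD36 KO cells and 0.808 to 1.33 CPM in WT cells. Mast cell markers summed to 3.66 to 5.19 CPM in CD36 KO cells with oxLDL, 4.68 to 5.73 CPM in CD36 KO cells in control medium, 0.860 to 2.08 CPM in WT cells with oxLDL and 1.01 to 1.30 CPM in WT cells in control medium. Of 7 macrophage markers 3 fell in CD36 KO cells averaged over both media and 0 rose, against 10.5% and 16.6% of all genes. The 3 are named after their values were seen: Adgre1 (listed as Emr1, -0.84, SE 0.08, adjusted p = 3.81e-05), Csf1r (-0.56, SE 0.07, adjusted p = 0.000227) and Fcgr1 (-1.96, SE 0.20, adjusted p = 5.42e-05). The number that fell was 5 without WT oxLDL replicate 1, and the share of all genes that fell in that fit is not given here. Of the 5 markers of large peritoneal macrophages, Gata6 (1.07, SE 0.17, adjusted p = 0.000946) and Timd4 (1.74, SE 0.17, adjusted p = 3.79e-05) rose and Icam2, Selp and Alox15 fell, averaged over both media, where 16.6% of all genes rose and 10.5% fell. T cell markers summed to 1.11 to 1.34 CPM in CD36 KO cells with oxLDL, 1.34 to 1.62 CPM in CD36 KO cells in control medium, 0.645 to 1.05 CPM in WT cells with oxLDL and 1.24 to 1.52 CPM in WT cells in control medium. Neutrophil markers summed to 14.0 to 23.0 CPM in CD36 KO cells with oxLDL, 6.98 to 7.55 CPM in CD36 KO cells in control medium, 22.2 to 41.5 CPM in WT cells with oxLDL and 6.91 to 8.34 CPM in WT cells in control medium. S100a8 made up most of these sums, at 5.98 to 41.4 CPM over the 12 libraries. S100a9 had at most 0.652 CPM, and Ly6g, Mpo and Elane had at most 0.255 CPM, so the sums rest on a single gene. Averaged over both media, Cd3e of the T cell list and S100a9 of the neutrophil list rose and S100a8 of the neutrophil list fell in CD36 KO cells, against 16.6% and 10.5% of all genes. When WT oxLDL replicate 1 was left out, the sums in WT cells with oxLDL were at most 3.82 CPM for B cell, 1.25 CPM for mast cell, 0.695 CPM for T cell and 23.9 CPM for neutrophil markers. The part of these cells in the mitochondrial differences was not tested.

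Exposure to oxLDL changed few transcripts of the mitochondrial genome, and the same 2 tRNA genes fell in both genotypes. In CD36 KO cells 0 of the 29 genes rose and 2 fell, against 11.6% of all genes that rose and 15.7% that fell. In WT cells 1 rose and 2 fell, against 18.1% and 18.6% of all genes. The genes that fell were mt-Tm and mt-Tl2 in both cases, and the gene that rose in WT cells was mt-Rnr2. The groups did not overlap for 3 genes that were lower in CD36 KO cells with oxLDL (mt-Tm, mt-Tl2 and mt-Nd3) and 0 that were higher, against 32.8% and 23.2% of all genes. In WT cells 6 did not overlap with oxLDL higher (mt-Rnr1, mt-Rnr2, mt-Atp8, mt-Tw, mt-Td and mt-Tt) and 2 with oxLDL lower, against 23.6% and 27.8%. In WT cells without replicate 1 of the oxLDL group, 6 did not overlap with oxLDL higher and 8 with oxLDL lower, against 35.1% and 38.4% of all genes. Averaged over genotypes, mt-Rnr2 rose and mt-Tm and mt-Tl2 fell, against 20.6% and 25.6% of all genes. The median log2 fold change of the mRNAs was -0.17 in CD36 KO cells, against -0.08 for all genes. In WT cells it was 0.21, against -0.01 for all genes, and its sign turned to -0.16 when libraries were scaled by their totals (all genes then -0.37), to -0.093 with the gene length trend removed, to -0.025 in a voom fit with sample quality weights and to -0.048 without WT oxLDL replicate 1.

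mt-Tm was at 1.30, 1.76 and 1.32 CPM in CD36 KO oxLDL libraries, against 4.04, 3.43 and 3.93 CPM in CD36 KO control libraries, and fell by 1.38 on the log2 scale (SE 0.26, adjusted p = 0.00225). In WT cells it was at 0.705, 0.871 and 0.332 CPM with oxLDL, against 1.25, 1.46 and 1.68 CPM in control medium, and fell by 1.17 (SE 0.29, adjusted p = 0.00834). Neither pair of groups overlapped. mt-Tl2 fell by 1.28 in CD36 KO cells (SE 0.27, adjusted p = 0.00461). In WT cells it was at 0.201, 0.285 and 0.304 CPM with oxLDL, against 0.636, 0.718 and 0.616 CPM in control medium, and fell by 1.29 (SE 0.34, adjusted p = 0.0125). Both genes were called lower in both genotypes in all 12 fits that left out 1 library, and without WT oxLDL replicate 1 the WT changes were -1.18 for mt-Tm (adjusted p = 0.00698) and -1.14 for mt-Tl2 (adjusted p = 0.0286). The call of mt-Tm in WT cells was lost when only the 6 WT libraries were fitted (adjusted p = 0.0636).

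Other RNAs moved with oxLDL as well. A list of 14 RNAs that lack or may lack a poly(A) tail summed to 33.2 to 38.4 CPM with oxLDL and 69.0 to 72.9 CPM in control medium in CD36 KO cells, and to 21.6 to 29.1 CPM with oxLDL and 56.8 to 65.6 CPM in control medium in WT cells. Most of that sum came from the histone genes Hist1h1c (-1.39, SE 0.08, adjusted p = 8.06e-08) and Hist1h2bc (-0.61, SE 0.15, adjusted p = 0.00566), which fell averaged over genotypes. Rn7sk, a small nuclear RNA without a tail, had -0.08 (SE 0.26, adjusted p = 0.820) and was at 0.415 to 1.19 CPM over the 12 libraries. Of the 5 mesothelial and fibroblast markers 3 fell averaged over genotypes (Upk3b, Krt19 and Col3a1), against 25.6% of all genes, and S100a8 of the neutrophil list rose (1.97, SE 0.22, adjusted p = 1.78e-05). The part of these in the changes of mt-Tm and mt-Tl2 was not tested.

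The mRNA that begins where each of these tRNA genes ends did not pass the test in either genotype. mt-Nd2 had -0.34 (SE 0.24, adjusted p = 0.326) in CD36 KO cells and 0.24 (SE 0.24, adjusted p = 0.449) in WT cells with oxLDL, and mt-Nd5 had -0.26 (SE 0.17, adjusted p = 0.299) in CD36 KO cells and 0.21 (SE 0.17, adjusted p = 0.360) in WT cells. Without WT oxLDL replicate 1, mt-Nd2 was called lower in CD36 KO cells at the same estimate of -0.34 (adjusted p = 0.0392), where 29.0% of all genes were called lower, and had -0.11 (adjusted p = 0.550) in WT cells. Counts at the tRNA gene were therefore set against those of its neighbour within each library, a ratio that no scaling between libraries affects. Per 1000 counts of mt-Nd2, mt-Tm had 2.51 ± 0.246 in CD36 KO cells with oxLDL and 5.23 ± 0.484 in CD36 KO cells in control medium, and 1.37 ± 0.664 in WT cells with oxLDL and 3.56 ± 0.286 in WT cells in control medium (SD, n = 3 each). Per 1000 counts of mt-Nd5, mt-Tl2 had 1.20 ± 0.326 with oxLDL and 2.48 ± 0.186 in control medium in CD36 KO cells, and 0.362 ± 0.101 with oxLDL and 1.05 ± 0.222 in control medium in WT cells. For both ratios the oxLDL libraries lay below all control libraries of their genotype, and the CD36 KO libraries above all WT libraries of the same medium. mt-Tl1 against mt-Nd1 behaved otherwise with oxLDL: its ratio was 23.0 ± 4.25 with oxLDL and 25.3 ± 0.466 in control medium in CD36 KO cells, and 18.9 ± 4.96 with oxLDL and 21.5 ± 0.787 in control medium in WT cells. In control medium its CD36 KO libraries, too, lay above all WT libraries (24.8 to 25.7 against 21.0 to 22.4), while with oxLDL the genotypes overlapped. The oxLDL libraries of this last ratio spread over their controls in both genotypes, and without WT oxLDL replicate 1, which was at 13.2, its mean in WT cells with oxLDL was 21.8. Without that library the WT oxLDL means were 1.55 for mt-Tm and 0.413 for mt-Tl2. mt-Tw, which follows mt-Nd2, had a higher mean ratio with oxLDL: per 1000 counts of mt-Nd2 it had 10.0 ± 3.37 with oxLDL and 8.75 ± 4.34 in control medium in CD36 KO cells, and 9.34 ± 1.97 with oxLDL and 6.55 ± 0.473 in control medium in WT cells. Its WT ranges did not overlap (7.59 to 11.5 with oxLDL and 6.05 to 6.99 in control medium), while those of CD36 KO cells did. mt-Ti per 1000 counts of mt-Nd1 overlapped in both genotypes, at 3.70 ± 2.24 with oxLDL and 4.22 ± 3.15 in control medium in CD36 KO cells, and 3.69 ± 2.02 with oxLDL and 2.56 ± 0.317 in control medium in WT cells. Counts at a tRNA gene can come from the mature tRNA or from a precursor that spans the gene, and these cannot be told apart here.

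**Figure D4:**
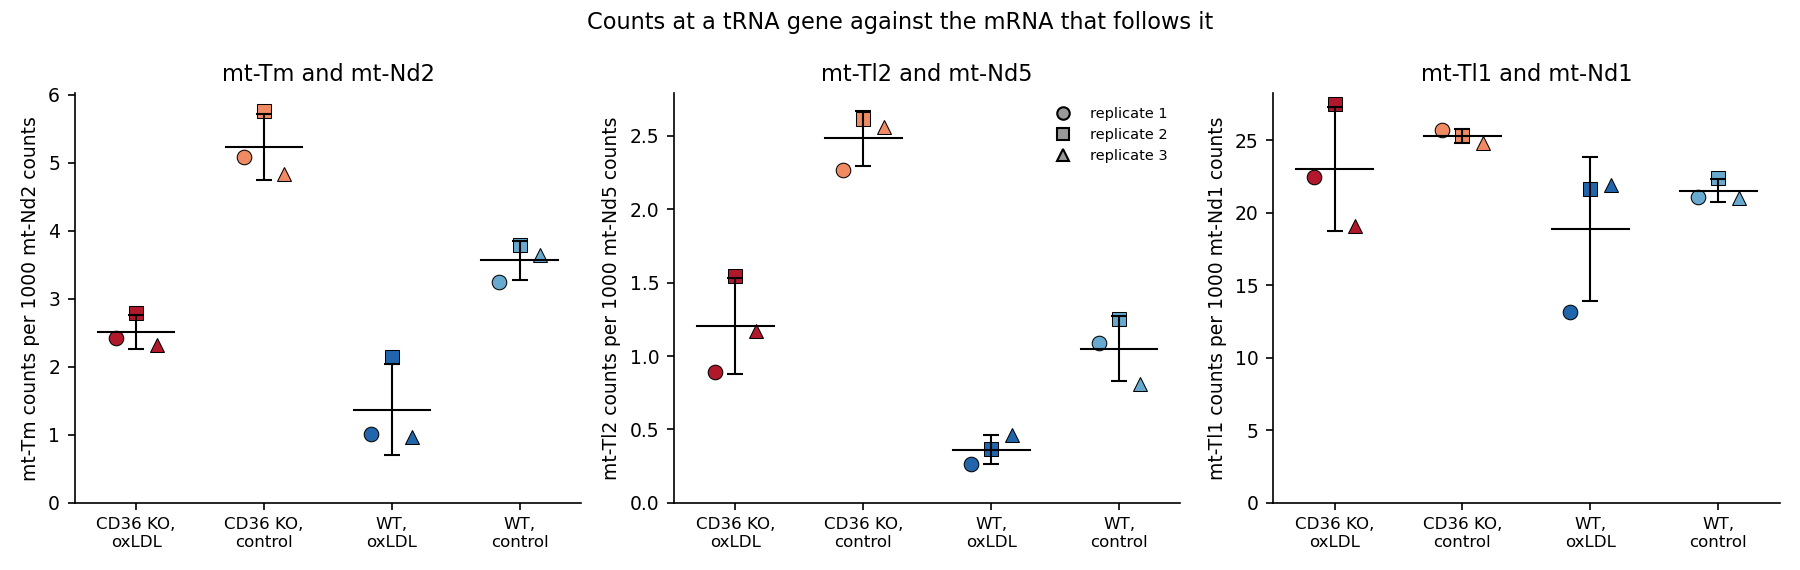
Counts at 3 tRNA genes per 1000 counts of the mRNA gene directly after each, by library. Symbols mark the replicate, horizontal lines the mean and bars the SD (n = 3). The ratios of mt-Tm and mt-Tl2 are lower with oxLDL than in control medium in both genotypes with no overlap, and that of mt-Tl1 overlaps.

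mt-Rnr2, the large-subunit rRNA, was at 261, 199 and 202 CPM in WT oxLDL libraries, against 132, 134 and 160.4 CPM in WT control libraries, and rose by 0.63 in log2 (SE 0.19, adjusted p = 0.0199). It had 0.51 (adjusted p = 0.0225) without WT oxLDL replicate 1. In CD36 KO cells it had 0.30 (SE 0.19, adjusted p = 0.280). The call in WT cells was lost when libraries were scaled by their totals (0.26, adjusted p = 0.181), with upper-quartile factors (adjusted p = 0.0582), with the gene length trend removed (adjusted p = 0.0573), and without WT control replicate 1 (adjusted p = 0.0762) or replicate 2 (adjusted p = 0.0741). mt-Rnr1 had 0.50 (SE 0.25, adjusted p = 0.135) in WT cells and 0.11 (SE 0.25, adjusted p = 0.788) in CD36 KO cells. The count of mitochondrial genes called in WT cells was 5 without WT oxLDL replicate 3, where 36.0% of all genes were called.

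The test of the difference between genotypes in their response to oxLDL called no mitochondrial gene. None of the 29 genes (0) had a different response in CD36 KO and WT cells by edgeR's quasi-likelihood test, against 0.669% of all genes (0.233% higher and 0.436% lower), and 1 gene had an unadjusted p under 0.05. That gene was mt-Atp8, with an interaction of -0.70 (SE 0.26, adjusted p = 0.334), and -0.51 (adjusted p = 0.149) without WT oxLDL replicate 1. DESeq2 also called 0, and voom with sample quality weights called 1, where both called more of all genes than edgeR. The median interaction of the mRNAs was -0.36, against -0.08 for all genes. For mt-Tm the interaction was -0.21 (SE 0.39, adjusted p = 0.902) and for mt-Tl2 0.01 (adjusted p = 0.997). A p that misses the threshold does not show that the responses were alike.

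Levels of 4 tRNAs varied between libraries in a way that the groups followed only in part. For mt-Ti, mt-Tw and mt-Td every CD36 KO control library was above every WT control library. In WT cells mt-Tw and mt-Td were also higher with oxLDL without overlap. Single libraries within groups nevertheless differed widely. mt-Ti, the isoleucine tRNA directly after mt-Nd1, was at 1.77, 6.94 and 3.22 CPM in CD36 KO oxLDL libraries, 2.87, 8.11 and 3.28 CPM in CD36 KO control libraries, 6.01, 1.60 and 1.71 CPM in WT oxLDL libraries and 1.57, 1.53 and 2.24 CPM in WT control libraries. CD36 KO oxLDL replicate 2, CD36 KO control replicate 2 and WT oxLDL replicate 1 stood above the rest. The same 3 libraries were highest in their groups for mt-Tw, the tryptophan tRNA directly after mt-Nd2 (8.10, 8.18 and 8.06 CPM), and for mt-Td, 1 base before mt-Co2 (1.67, 2.30 and 1.58 CPM). The other 9 libraries had at most 6.21 CPM for mt-Tw and at most 1.02 CPM for mt-Td. They were also the highest of their own groups for mt-Tg (0.864, 1.53 and 1.31 CPM), of which the other 9 libraries had 0.276 to 0.955 CPM.

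mt-Nd3 and its nuclear copy were counted in unlike proportions in the 2 genotypes. mt-Nd3 had 157, 118 and 119 counts in CD36 KO oxLDL libraries, 139, 159 and 142 in CD36 KO control libraries, 122, 139 and 70 in WT oxLDL libraries and 150, 133 and 133 in WT control libraries. Gm28438 had 99, 74 and 73 counts in CD36 KO oxLDL libraries, 93, 104 and 106 in CD36 KO control libraries, 31, 17 and 10 in WT oxLDL libraries and 22, 18 and 19 in WT control libraries. The copy thus took 38.4 ± 0.344% of the counts of the pair in CD36 KO cells with oxLDL, 40.8 ± 1.71% in CD36 KO cells in control medium, 14.6 ± 5.01% in WT cells with oxLDL and 12.4 ± 0.443% in WT cells in control medium (SD, n = 3 each). The lowest CD36 KO library was at 38.0% and the highest WT library, WT oxLDL replicate 1, at 20.3%; without it the WT oxLDL mean was 11.7%. By the fit over all genes Gm28438 rose in CD36 KO cells by 2.39 in control medium (SE 0.38, adjusted p = 0.00260) and by 1.91 with oxLDL (SE 0.38, adjusted p = 0.00524), while mt-Nd3 did not pass in either. Without WT oxLDL replicate 1, mt-Nd3 had 0.46 (adjusted p = 0.0287) with oxLDL and 0.12 (adjusted p = 0.518) in control medium, and its change with oxLDL in WT cells was -0.50 (adjusted p = 0.0134), where 24.4% of all genes were called lower.

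No other pair had such a gap between the genotypes. The copy of mt-Co2 (Gm28661) took 37.6 ± 2.02% of its pair in CD36 KO cells with oxLDL, 40.2 ± 1.87% in CD36 KO cells in control medium, 36.4 ± 3.29% in WT cells with oxLDL and 37.3 ± 1.52% in WT cells in control medium. The copy of mt-Atp6 (Gm10925) took 38.6% to 41.6% in CD36 KO cells with oxLDL, 35.7% to 38.9% in CD36 KO cells in control medium, 41.2% to 41.9% in WT cells with oxLDL and 37.6% to 41.0% in WT cells in control medium. That of mt-Co3 (Gm28437) took 32.0 ± 3.23% in CD36 KO cells with oxLDL, 32.6 ± 1.52% in CD36 KO cells in control medium, 35.5 ± 0.251% in WT cells with oxLDL and 34.4 ± 2.33% in WT cells in control medium. The copy of mt-Nd4l (Gm10222) took 46.9 ± 1.91% in CD36 KO cells with oxLDL, 48.0 ± 3.86% in CD36 KO cells in control medium, 41.5 ± 3.98% in WT cells with oxLDL and 40.7 ± 2.90% in WT cells in control medium. These 4 copies are identical to their genes, so their reads carry no base that separates them. The copies of mt-Nd4 (Gm28439) and mt-Co1 (Gm29216), which match parts of the long genes, took 1.46% to 2.67% and 0.413% to 1.22% over the 12 libraries. Smaller differences between genotypes without overlap were present in some pairs. In control medium the share was higher in CD36 KO cells for Gm28661, Gm10222 and Gm28439 (2.07% to 2.21%, against 1.66% to 1.82% in WT cells, for Gm28439). With oxLDL it was higher in CD36 KO cells for Gm10222 and lower for Gm28437. Of the 7 copies, 4 rose in CD36 KO cells in control medium (Gm28439, Gm10222, Gm28438 and Gm10925) and 3 with oxLDL (Gm28439, Gm10222 and Gm28438), against 8.78% and 11.7% of all genes. When WT oxLDL replicate 1 was left out these counts were 6 and 6, against 17.2% and 16.1%. Summed over gene and copy, the mt-Nd3 pair was at 5.01 ± 0.199 CPM in CD36 KO cells with oxLDL, 5.84 ± 0.434 CPM in CD36 KO cells in control medium, 3.37 ± 1.55 CPM in WT cells with oxLDL (2.49 CPM without replicate 1) and 3.63 ± 0.126 CPM in WT cells in control medium. In control medium the CD36 KO and WT sums did not overlap (5.45 to 6.31 CPM and 3.50 to 3.75 CPM), whereas the CPM of mt-Nd3 alone overlapped.

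**Figure D5:**
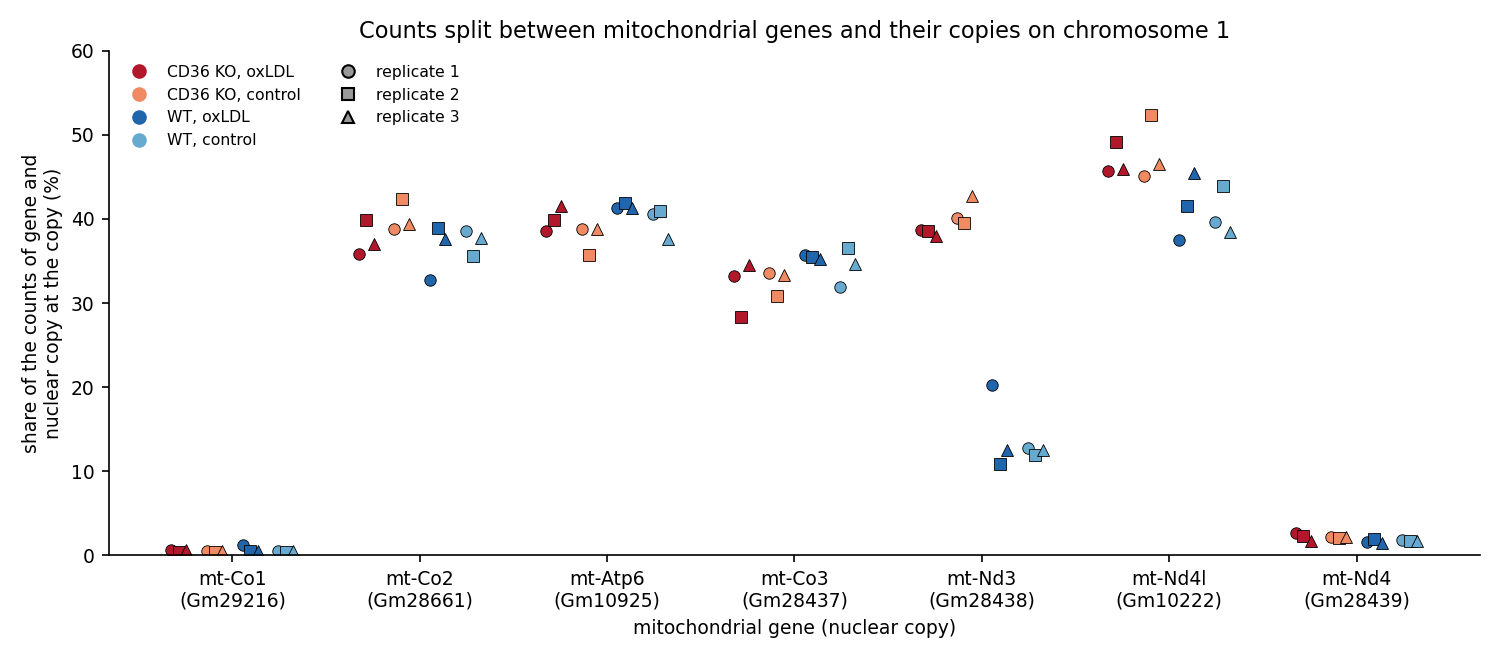
Share (%) of the counts of each mitochondrial gene and its nuclear copy that was assigned to the copy, by library, for the 7 pairs in genome order. Colours mark the group and symbols the replicate. For mt-Nd3 the CD36 KO libraries lie at 38.0% or more and the WT libraries at 20.3% or less, and no other pair shows a gap of this size.

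The nuclear-encoded partners of the mitochondrial subunits were compared between genotypes in the same fit. Ndufa4 was kept in the complex I list by its name, though its protein is counted as a subunit of complex IV. In control medium 0 of 15 complex I genes, 0 of 9 complex III genes, 0 of 10 complex IV genes and 0 of 16 ATP synthase genes were called in either direction in CD36 KO cells against WT cells by edgeR, against 8.78% of all genes higher and 2.42% lower, and 0 of these 50 genes had an unadjusted p under 0.05. DESeq2 also called 0, while voom with sample quality weights called 6, 2, 3 and 5 of them lower and 0 higher. Voom called more of all genes than edgeR. Its share of all genes in this contrast is not given here, so its counts are no result about these 50 genes. Their median log2 fold changes were -0.20 for complex I, -0.16 for complex III, -0.19 for complex IV and -0.16 for the ATP synthase, against 0.83 for the mitochondrial mRNAs and 0.01 for all genes. With oxLDL the medians were -0.48, -0.45, -0.63 and -0.44, and 1 of the 50 genes fell, Uqcrc2, a core subunit of complex III (-0.42, SE 0.12, adjusted p = 0.0284), against 9.86% of all genes. In WT cells oxLDL gave medians of 0.38, 0.49, 0.73 and 0.49, and 4 of the 50 genes, named after their values were seen, rose, against 18.1% of all genes: Uqcrc2 (0.40, SE 0.12, adjusted p = 0.0224) and Cyc1 (0.75, SE 0.24, adjusted p = 0.0290) of complex III, Cox5a (0.92, SE 0.28, adjusted p = 0.0255) of complex IV and Atp5b (0.56, SE 0.15, adjusted p = 0.0138) of the ATP synthase. The medians with oxLDL moved with WT oxLDL replicate 1. Without it the genotype medians with oxLDL were -0.07 for complex I, -0.09 for complex III, -0.09 for complex IV and -0.10 for the ATP synthase, and the WT medians with oxLDL were -0.02, 0.15, 0.15 and 0.05. Of the 50 genes, 0 then rose and 3 fell between genotypes with oxLDL (21.2% of all genes lower), 0 rose and 3 fell between genotypes in control medium (12.1% lower), and 4 rose and 4 fell with oxLDL in WT cells (24.3% higher and 24.4% lower).

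Genes for the upkeep and expression of the mitochondrial genome were tested in the same fits. Of 19 genes of mitochondrial transcription and DNA maintenance, 1 rose in CD36 KO cells in control medium: Mterf2, a member of the mitochondrial transcription termination factor family (1.13, SE 0.24, adjusted p = 0.0110), against 8.78% of all genes. With oxLDL 2 rose, near the 11.7% of all genes, Twnk (listed as Peo1), the helicase of mitochondrial DNA replication (0.57, SE 0.13, adjusted p = 0.00859), and Top1mt, a mitochondrial topoisomerase (0.45, SE 0.13, adjusted p = 0.0275). Averaged over both genotypes, oxLDL lowered 6 of the 19 and raised 1, against 25.6% and 20.6% of all genes. By size of change, those called were led by Polg2, the accessory subunit of the mitochondrial DNA polymerase (-1.08, SE 0.18, adjusted p = 0.000541), Primpol, a primase and polymerase (-0.75, SE 0.10, adjusted p = 0.0001), Mterf2 (-0.56, SE 0.18, adjusted p = 0.0313) and Tefm, the mitochondrial transcription elongation factor, which rose (0.42, SE 0.13, adjusted p = 0.0163). Leaving out WT oxLDL replicate 1, 3 of the 19 rose in CD36 KO cells in control medium (17.2% of all genes) and 4 with oxLDL (16.1%), and 3 rose and 6 fell with oxLDL averaged over genotypes (27.4% and 33.0%).

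Of 27 genes of mitochondrial RNA processing, modification and decay, 8 rose with oxLDL averaged over both genotypes and 0 fell, against 20.6% and 25.6% of all genes. They included Slirp, which stabilizes mitochondrial mRNAs together with Lrpprc (1.12, SE 0.20, adjusted p = 0.000830), Pnpt1, the mitochondrial polynucleotide phosphorylase (0.72, SE 0.09, adjusted p = 5.49e-05), Trmt5, a tRNA methyltransferase (0.64, SE 0.08, adjusted p = 4.48e-05), and Rexo2, an oligoribonuclease (0.58, SE 0.14, adjusted p = 0.00604). Leaving out WT oxLDL replicate 1, 14 of the 27 rose and 2 fell with oxLDL, against 27.4% and 33.0% of all genes. Between genotypes in control medium 0 of the 27 were called, by edgeR, with 0 at an unadjusted p under 0.05. Without WT oxLDL replicate 1, edgeR called 2 higher and 4 lower (17.2% and 12.1% of all genes). DESeq2 called 1 lower and voom 2 higher and 8 lower. Their shares of all genes in this contrast are not given here, so these counts are no result about the 27 genes. A list of 13 genes held those of mitochondrial translation and the membrane protein insertases Oxa1l and Cox18. Of these 13 genes 1 rose with oxLDL, the insertase Cox18 (0.89, SE 0.10, adjusted p = 2.14e-05), and 2 fell, Mtif2 (-0.33, SE 0.12, adjusted p = 0.0388) and Mtfmt (-0.29, SE 0.10, adjusted p = 0.0323). Of 8 genes that make, carry or break down the nucleotides from which mitochondrial DNA is built, 4 rose and 1 fell with oxLDL. Cmpk2, the mitochondrial nucleotide kinase, rose by 4.92 (SE 0.21, adjusted p = 6.27e-09), Slc25a33, a pyrimidine nucleotide carrier, by 1.68 (SE 0.14, adjusted p = 1.63e-06) and Samhd1, which degrades deoxynucleotides, by 1.34 (SE 0.13, adjusted p = 7.82e-06), and Tymp, the thymidine phosphorylase, by 0.61 (SE 0.19, adjusted p = 0.0203). The gene that fell was Tk2, the mitochondrial thymidine kinase (-0.48, SE 0.09, adjusted p = 0.000818), which is named after its value was seen. Among 7 nuclear regulators of mitochondrial gene expression, Ppargc1a fell (-2.65, SE 0.34, adjusted p = 5.81e-05) and Esrra (0.94, SE 0.12, adjusted p = 7.74e-05) and Pprc1 (0.48, SE 0.15, adjusted p = 0.0229) rose. These 3 lists, too, were read against 20.6% of all genes higher and 25.6% lower. Leaving out WT oxLDL replicate 1 (27.4% and 33.0%) gave 3 higher and 2 lower genes on the list of translation and insertion. It gave 4 higher and 3 lower nucleotide genes, and 2 higher and 1 lower regulators.

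The authors' deposited tables listed 19 to 21 of the 37 genes in each comparison, with calls at an FDR under 0.05 of 19 higher and 0 lower for CD36 KO against WT in control medium (23.2% and 18.4% of all genes listed there) and 2 higher and 0 lower for the same comparison with oxLDL (8.62% and 3.24%). The authors' deposited tables also called 0 higher and 2 lower for oxLDL in CD36 KO cells (22.1% and 24.2% of all genes listed there), and 0 higher and 1 lower for oxLDL in WT cells (13.8% and 13.8%).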

How the data were processed

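RNA was sequenced from 12 libraries (4 groups of 3), grouped by the labels. The authors deposited counts per gene and RPKM, which equal the counts divided by the library total and by the gene length plus 1 base. The authors' deposited tables give log2 fold changes, p-values and FDR values, of which those of the mitochondrial genes were read, and a dispersion score that was not used. Per the submitters' processing notes, mm10 was the genome build and FastQC was used. How reads were aligned and counted, whether by strand, and whether poly(A) RNA was selected is not given in the sources used here.

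Counts were fitted in R 4.3.3 with edgeR 4.0.16 (TMM factors, filterByExpr with minimum count 10 and minimum total 15, robust quasi-likelihood test), with all 12 libraries and 16281 genes in 1 fit, for 7 contrasts, and Benjamini-Hochberg adjustment over all genes; calls are at adjusted p under 0.05. The standard error was taken as the size of the log2 fold change over the square root of F. It is not printed for the interaction of mt-Tl2, whose estimate near 0 makes that quotient unreliable. The fit was tested on simulated data. Alternatives used DESeq2 1.42.0, limma 3.58.1 (voom), other scalings, filters and sample sets. Sequences were compared with Biopython 1.88 and tables joined with pandas 2.3.3. Library totals of 35257762 to 65135955 set the precision.

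Every mitochondrial gene kept by the filter is named. Of each other list, up to 4 genes with the largest change among those called with oxLDL averaged over genotypes are named, and up to 2 called in a genotype contrast. The members and lists were chosen with earlier results of these data known.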

Additional observations from a re-analysis of the deposited data

How the results depend on the processing

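Of 3291 single-gene values under alternatives, 3094 stayed on the same side of the threshold in the same direction, 88 lost and 109 gained the call, and 0 changed direction as a call; 276 of 1656 list counts moved by over 1.5 times. Causes were not tested. Counts of mitochondrial genes called in this section are over the 29 genes tested. Where no share of all genes stands beside them they are no result about these genes. With library totals in place of TMM factors, mitochondrial genes called were 19 (CD36 KO against WT, control), 19 (the same with oxLDL) and 8 (oxLDL averaged). The mRNA medians were then 0.87 (genotype averaged), 0.81 (genotype with oxLDL), -0.29 (oxLDL averaged) and -0.16 (oxLDL in WT). All genes shifted as well, with medians of 0.23, 0.31, -0.31 and -0.37 in the same order. The mRNA median for oxLDL averaged was thus near that of all genes. With the length trend removed, 7 were called for oxLDL averaged, the median for oxLDL in WT was -0.093, and the interaction called 198 of all genes. Voom called 27 (control), 19 (with oxLDL), 9 (oxLDL averaged), 4 (oxLDL in CD36 KO), 6 (oxLDL in WT) and 1 (interaction) mitochondrial genes, and 9556 (genotype averaged), 7248, 7984, 8378 (oxLDL in CD36 KO), 10244 (oxLDL in WT) and 2533 (interaction) of all genes. Fits to the groups compared alone called 6684 (control), 1191 (with oxLDL) and 3687 (oxLDL in WT) of all genes and 1 mitochondrial gene with oxLDL; DESeq2 called 535 of all genes for the interaction. By RPKM, mt-Co1 was 41.5% (CD36 KO with oxLDL), 38.8% (CD36 KO control) and 42.4% (WT control) of the mRNAs. Switching off robust estimation was chosen after seeing the data and moved no count of genes or of mitochondrial genes called by over 1.5 times. Ratios, copy shares, marker sums and non-overlap counts without WT oxLDL replicate 1 were also added then, and 3 of 36 moved, all counts of genes whose groups do not overlap.

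Leaving out 1 library gave 3362 to 7841 genes called (genotype averaged), 853 to 4870 (control), 2068 to 6205 (with oxLDL), 40 to 1158 (interaction), 6638 to 10056 (oxLDL averaged), 3397 to 8315 (oxLDL in CD36 KO) and 4517 to 8097 (oxLDL in WT). In the same order, mitochondrial genes called were 12 to 28, 5 to 23, 3 to 20, 0 to 0, 3 to 4, 2 to 3 and 2 to 5, and mRNA medians 0.54 to 0.72, 0.75 to 0.93, 0.33 to 0.72, -0.54 to -0.14, -0.12 to 0.05, -0.29 to -0.11 and -0.048 to 0.35. Shares of all counts were 0.841% to 0.916% (CD36 KO with oxLDL), 1.04% to 1.15% (CD36 KO control), 0.485% to 0.516% (WT with oxLDL) and 0.550% to 0.605% (WT control). In the same order of groups, the share of mt-Co1 in the mitochondrial mRNA counts was 47.6% to 49.5%, 45.5% to 45.9%, 44.5% to 52.5% and 49.3% to 49.8%.

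Same-numbered replicates showed no common deviation (r -0.399 to 0.357 over 18 pairs, against -0.568 to 0.538 over 36 other pairs). With 3 libraries per group, these correlations cannot decide whether the replicate numbers pair samples, and the labels do not say. The replicate block called 10 (control), 6 (with oxLDL), 17 (genotype averaged), 2 (oxLDL in CD36 KO), 3 (oxLDL in WT), 3 (oxLDL averaged) and 0 (interaction) mitochondrial genes, and 44 of all genes for the interaction. Depth limits the tRNAs, 8 of which were too low to test.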
